A study of Mus musculus with 36 samples.

Results

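Cadherins and protocadherins are calcium-dependent adhesion molecules of the cell surface. Classical cadherins join like cells through their extracellular repeats and are tied to actin by catenins. Type I members (E-, N- and R-cadherin) form the strong junctions of epithelia, neural tissue and muscle, while type II members (among them Cdh5, Cdh6, Cdh10, Cdh11, Cdh19 and Cdh20) sort cells and are known from endothelium, mesenchyme, nervous system and neural crest derivatives. Protocadherins adhere more weakly and guide contacts between neural cells, and the α, β and γ protocadherins, which lie in neighbouring clusters, give single neurons different surface identities because each cell uses a few promoters of each cluster. The expression of these genes was compared here among the cells that S100β-GFP and NG2-dsRed label in young skeletal muscle, where perisynaptic Schwann cells (PSCs), the glia that cap the neuromuscular synapse, carry both labels.

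The members are the genes of the count table whose Ensembl identifier belongs to a protein-coding mouse gene with a symbol that starts with Pcdh, or with Cdh and a digit. They number 92 of the 52636 genes listed. Of these, 23 are cadherins, 12 are protocadherins outside the clusters, and 14, 22 and 21 are α, β and γ protocadherins, and 60 members lie on mouse chromosome 18. All libraries came from S100β-GFP;NG2-dsRed mice, in which the S100b promoter drives GFP and the Cspg4 (NG2) promoter drives dsRed, so the groups are sorting gates on 2 transgenes. S100β-GFP+;NG2-dsRed+ PSCs (9 libraries), S100β-GFP+ cells (8 libraries) and NG2-dsRed+ cells (10 libraries) were sorted from the pooled diaphragm, pectoralis, forelimb and hindlimb muscle of 1 mouse per library. All 8 S100β-GFP+ libraries of the table were used, whereas the methods count fewer replicates of these cells after failed samples were set aside and do not name them. The study methods give an age of postnatal day 15 to 21, whereas the last number in the age labels counts up from 21 to 46 over the samples. Libraries held 5221655 to 9592875 counts on genes (median 6953507).

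The genes behind the transgenes followed the gates, with S100b at 255 ± 198, 29.4 ± 10.1 and 6.54 ± 4.90 TMM-normalised read counts per 1e6 counts (CPM) and Cspg4 at 689 ± 132, 71.0 ± 42.3 and 665 ± 138 CPM in PSCs, S100β-GFP+ cells and NG2-dsRed+ cells (SD, n = 9, 8 and 10). Markers of other cell types were present to different degrees, and some libraries stood apart. The 7 Schwann cell lineage markers summed to 2565–3206 CPM in PSCs, 655–1995 CPM in S100β-GFP+ cells and 75.2–446 CPM in NG2-dsRed+ cells. Pericyte and smooth muscle markers (8 genes) reached 7124–15607 CPM in NG2-dsRed+ cells against 782–1403 CPM in PSCs. S100β-GFP+ libraries also held 17831–40701 CPM of 5 fibroblast markers and 1055–10174 CPM of 5 macrophage and leukocyte markers, against 695–2866 CPM and 34.1–570 CPM in PSCs. Endothelial markers (8 genes, none without a count in any group) summed to 949–2796 CPM in NG2-dsRed+ cells and 140–628 CPM in PSCs. Among S100β-GFP+ libraries, numbers 14, 17 and 22 held 688, 2203 and 1168 CPM of them and the other 5 held 130–172 CPM, so results that rest on these 3 libraries are given with and without them. PSC library 18 had counts on 14616 genes and 41 members, fewer than any of the other 26 libraries (at least 19669 genes and 63 members). In bulk samples of this kind, fewer cells of a type and less RNA per cell cannot be told apart.

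Of the 92 members, 59 had enough counts to enter the fit. Between PSCs and S100β-GFP+ cells 25 of the 59 differed (42.4%, against 47.0% of all 15330 genes tested; edgeR quasi-likelihood test with a Benjamini-Hochberg adjusted p under 0.05). Of the 25, 21 were higher in PSCs, beside 3511 of the 7198 called among all genes. Between PSCs and NG2-dsRed+ cells 24 differed (40.7%, against 44.0% of all genes), 15 of them higher in PSCs (3197 of the 6743 called among all genes were). Between S100β-GFP+ and NG2-dsRed+ cells 18 differed (30.5%, against 33.3%), 14 of them higher in NG2-dsRed+ cells (2328 of the 5099 called among all genes were). The shares called were therefore close to those of all genes, and the median log2 fold change of the members tested was 0.76 for PSCs over S100β-GFP+ cells, 0.12 for PSCs over NG2-dsRed+ cells and −0.41 for S100β-GFP+ over NG2-dsRed+ cells, beside 0.04, 0.02 and −0.02 over all genes. The members that were higher in PSCs than in both other groups numbered 12 (20.3%, against 13.9% of all genes). Of these, 6 exceeded both by a log2 fold change of at least 2 (10.2% of the members tested, against 3.27% of all genes). A log2 fold change of at least 2 from both other groups was otherwise found for Cdh4 (lower in PSCs; 4.53% of all genes), for Cdh5 and Pcdh12 (higher in NG2-dsRed+ cells; 2.38%) and for Cdh1, Pcdh9 and Pcdh20 (lower in NG2-dsRed+ cells; 1.76%). No member stood 2 or more above (4.96% of all genes) or below (0.444%) both other groups in S100β-GFP+ cells. Of the members tested, 24 differed in no comparison (40.7%, against 36.0% of all genes), among them Cdh11, Cdh15 and Pcdh11x.

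Per kilobase of exon, a single member led each group outside the clusters. In PSCs Cdh19 had a mean of 65.5 CPM per kb, ahead of Cdh5 (30.8 CPM per kb), Pcdh17 (8.74 CPM per kb), Pcdh9 (6.61 CPM per kb) and Cdh11 (4.70 CPM per kb). In S100β-GFP+ cells Cdh5 came first with 46.5 CPM per kb, most of it from libraries 14, 17 and 22, and Pcdh7, Pcdh18 and Pcdh20 followed at 6.66, 6.65 and 6.09 CPM per kb. NG2-dsRed+ cells were led by Cdh5 at 219 CPM per kb, with Cdh13, Pcdh18, Pcdh17 and Pcdh19 between 17.3 and 11.8 CPM per kb.

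A set of type II cadherins known from the nervous system were high in PSCs. Cdh19, a cadherin of the Schwann cell lineage (chr1:110888326-110977584, minus strand, GRCm38), ranged from 164 CPM through a median of 220 CPM to 564 CPM over PSC libraries, from 2.00 through 6.85 to 21.1 CPM over S100β-GFP+ libraries and from 2.45 through 8.15 to 16.7 CPM over NG2-dsRed+ libraries. The lowest PSC library thus lay far above every other library, while the other groups overlapped along most of their ranges. Cdh19 was 32.2-fold higher in PSCs relative to S100β-GFP+ cells (280 ± 126 CPM, SD, n = 9, against 8.75 ± 7.21 CPM, SD, n = 8; log2 fold change 5.01 ± 0.46, standard error; edgeR adjusted p = 2.31e-10). Its level in PSCs was 33.9-fold that in NG2-dsRed+ cells (8.24 ± 3.80 CPM, SD, n = 10; edgeR adjusted p = 3.28e-11). S100β-GFP+ and NG2-dsRed+ cells did not pass the test against each other (log2 fold change 0.07; edgeR adjusted p = 0.911), although the Schwann cell markers differed between these groups.

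Cdh10, a neural type II cadherin on chromosome 15 (chr15:18818947-19014236, plus strand), followed the same order at a lower level. Its values were 12.8, 25.5 and 47.4 CPM (lowest, median and highest) in PSCs, 0, 0.19 and 3.62 CPM in S100β-GFP+ cells and 0, 0.16 and 1.06 CPM in NG2-dsRed+ cells. No PSC library overlapped with the others, and 38 and 16 counts in all were behind the levels in S100β-GFP+ and NG2-dsRed+ cells. The fitted log2 fold changes were 5.11 ± 0.64 and 6.76 ± 0.65 for PSCs over S100β-GFP+ and over NG2-dsRed+ cells (edgeR adjusted p = 1.02e-07 and 1.02e-09). The highest S100β-GFP+ value came from library 22, and without libraries 14, 17 and 22 PSCs were 90.8-fold higher than the other 5 (edgeR adjusted p = 1.34e-08).

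Cdh20 lies on chromosome 1 (chr1:104768529-104995481, plus strand), on the same chromosome as Cdh19 and Cdh7. It ranged from 1.05 through 6.15 to 14.7 CPM in PSCs, from 0 through 0.069 to 1.32 CPM in S100β-GFP+ cells, and from 0 to 1.13 CPM with a median of 0 in NG2-dsRed+ cells. PSC library 36, the lowest, fell within the range of the other groups and the remaining 8 PSC libraries lay above it. The log2 fold changes were 4.16 ± 0.83 and 5.26 ± 0.82 (edgeR adjusted p = 0.000136 and 4.46e-06). Without S100β-GFP+ libraries 14, 17 and 22 the first was 5.31 ± 1.07 (edgeR adjusted p = 0.000197). Cdh7 did not have enough counts to enter the fit. Another neural type II cadherin, Cdh8, was also below that level, with 112 counts in 8 of 9 PSC libraries, 20 counts in 5 of 8 S100β-GFP+ libraries and 2 counts in NG2-dsRed+ libraries.

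**Figure D1:**
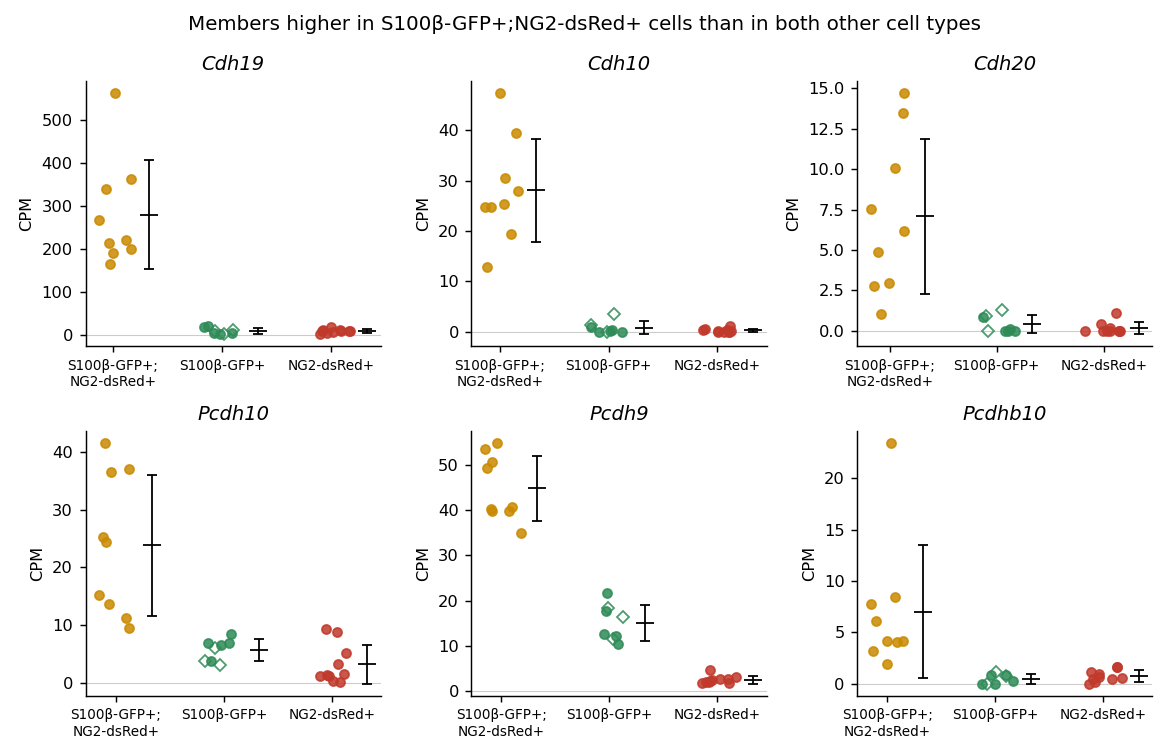
Normalised expression (CPM, vertical axis, 1 panel per gene) of the 6 members shown as higher in PSCs, for each PSC, S100β-GFP+ and NG2-dsRed+ library. Dots are libraries, open diamonds are S100β-GFP+ libraries 14, 17 and 22, and black bars give the mean with the SD. For Cdh19 the lowest PSC library (164 CPM) lies above the highest of the other libraries (21.1 CPM), and for Pcdhb10 a single PSC library reaches 23.5 CPM.

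Pcdh10 and Pcdh9, δ protocadherins with known roles in axon growth and neural circuits, were the non-clustered protocadherins higher in PSCs than in both other groups. Pcdh9 (chr14:93013410-93890679, minus strand) had 34.9, 40.6 and 54.8 CPM (lowest, median and highest) in PSCs, 10.5, 14.5 and 21.8 CPM in S100β-GFP+ cells and 1.78, 2.35 and 4.72 CPM in NG2-dsRed+ cells. The 3 groups did not overlap in any library. PSCs exceeded S100β-GFP+ cells by a log2 fold change of 1.57 ± 0.18 (44.8 ± 7.17 CPM, n = 9, against 15.1 ± 4.00 CPM, n = 8, SD; edgeR adjusted p = 2.25e-08), and S100β-GFP+ cells exceeded NG2-dsRed+ cells by 2.54 ± 0.18 (2.59 ± 0.87 CPM, SD, n = 10; edgeR adjusted p = 1.02e-11).

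Pcdh10 (chr3:45378398-45435623, plus strand) reached 9.55, 24.4 and 41.6 CPM in PSCs, 3.00, 6.27 and 8.42 CPM in S100β-GFP+ cells and 0.18, 1.40 and 9.22 CPM in NG2-dsRed+ cells, and every PSC library lay above every other library. Its log2 fold changes were 2.07 ± 0.50 over S100β-GFP+ cells and 2.88 ± 0.48 over NG2-dsRed+ cells (edgeR adjusted p = 0.0011 and 1.25e-05). Lars2, Gm23935 and Gm15564 together took 3.64% to 40.0% of a library's counts, and Pcdh10 moved with that share among PSCs. The 5 PSC libraries with a share under 25% held 24.4–41.6 CPM and the 4 with a higher share held 9.55–15.2 CPM, so the ranges did not meet. With the share as a term in the fit, the log2 fold change over S100β-GFP+ cells was 1.07 (edgeR adjusted p = 0.0364). The part of the share in this result was not otherwise tested. Across the members tested, every PSC library lay above all other libraries for 5 genes, namely Cdh10, Cdh19, Pcdh9, Pcdh10 and Pcdhb10 (3.24% of all genes).

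The opposite order, lowest in PSCs and highest in NG2-dsRed+ cells, was found for the δ-2 protocadherins Pcdh18 and Pcdh19 and for the type I cadherin Cdh4. Pcdh19, an X-linked gene known from an inherited epilepsy (chrX:133582860-133688987, minus strand), had 9.11, 12.7 and 26.8 CPM (lowest, median and highest) in PSCs, 22.9, 47.2 and 80.8 CPM in S100β-GFP+ cells and 76.4, 127 and 170 CPM in NG2-dsRed+ cells. Only the edges of neighbouring ranges overlapped. PSCs were 3.25-fold lower than S100β-GFP+ cells and 7.95-fold lower than NG2-dsRed+ cells (log2 fold changes −1.70 ± 0.24 and −2.99 ± 0.25; edgeR adjusted p = 1.12e-06 and 4.24e-11).

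Pcdh18 (chr3:49743296-49757325, minus strand) ran from 3.85 through 14.8 to 21.5 CPM in PSCs, from 23.0 through 34.4 to 56.6 CPM in S100β-GFP+ cells and from 55.3 through 84.4 to 136 CPM in NG2-dsRed+ cells. Every PSC library lay below every other library (3.14% of all genes did so), and S100β-GFP+ and NG2-dsRed+ libraries met only at 55.3–56.6 CPM. The log2 fold changes of PSCs were −1.32 ± 0.24 and −2.58 ± 0.24 (edgeR adjusted p = 3.53e-05 and 3.8e-10). S100β-GFP+ libraries 14, 17 and 22 held 56.6, 39.7 and 44.8 CPM against 23.0–41.1 CPM in the other 5, and without them the first log2 fold change was −0.95 (edgeR adjusted p = 0.00352).

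Cdh4, which encodes R-cadherin (chr2:179442431-179899373, plus strand), was scarce in PSCs (0, 0.26 and 1.15 CPM) and ranged from 0.89 through 2.02 to 6.58 CPM in S100β-GFP+ cells and from 2.63 through 6.40 to 10.7 CPM in NG2-dsRed+ cells. Of the 8 S100β-GFP+ libraries, 1 (0.89 CPM) fell within the PSC range and 7 lay above it. The log2 fold changes were −2.66 ± 0.52 and −3.94 ± 0.51 (edgeR adjusted p = 9.06e-05 and 2.49e-07). Without S100β-GFP+ libraries 14, 17 and 22 the first was −1.98 (edgeR adjusted p = 0.0054). S100β-GFP+ cells were below NG2-dsRed+ cells by 1.28 on the log2 scale (edgeR adjusted p = 0.0321), a call that was lost in 8 of the 27 fits that leave out 1 library. Pcdh18, Pcdh19, Cdh4 and Cdh23 were the 4 members lower in PSCs than in both other groups (14.4% of all genes tested were), and Pcdh18, Pcdh19 and Cdh4 peaked with the pericyte markers in NG2-dsRed+ cells. Without Cspg4, the gene of the NG2 gate, the other 7 pericyte markers summed to 191–685 CPM (median 371 CPM) in PSCs, 203–1495 CPM (median 756 CPM) in S100β-GFP+ cells and 6632–14749 CPM in NG2-dsRed+ cells, and 5 of the 8 were lower in PSCs relative to S100β-GFP+ cells (Abcc9, Kcnj8, Notch3, Pdgfrb and Rgs5), so that they moved in the same direction as the 3 members. Acta2 and Myh11 did not pass the test in that comparison, and Cspg4 was higher in PSCs. This direction was not particular to pericyte markers. For all 5 fibroblast markers, PSCs lay below S100β-GFP+ cells and below NG2-dsRed+ cells by the test. The mean fibroblast sum peaked in S100β-GFP+ cells, at 28898 CPM against 8803 CPM in NG2-dsRed+ cells. The part of pericyte or fibroblast RNA in the levels of the 3 members was not tested.

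Bases upstream of a start site are shown for a pair of members high in PSCs and for 1 member low in PSCs, as examples of how unlike these promoters are. RefSeq (GRCm38.p6) gave a promoter for 22 of the members looked up (25 promoters), among them 9 members described with their range. The members left out, named with the processing of the data, were not looked up, so whether they have a promoter there was not tested. The 250 bases before the start site were searched on both strands for ACAAAG, the core letters bound by SOX factors. A search for CCAAT on both strands was added after the sequences had been read. Each sequence is given 5′ to 3′ on the strand of the gene, with CCAAT matches of either strand in capitals. The windows are chr1:104768270-104768519 (plus strand) for Cdh20, chr3:45378148-45378397 (plus strand) for Pcdh10 and chrX:133688994-133689243 (minus strand) for Pcdh19.
Cdh20: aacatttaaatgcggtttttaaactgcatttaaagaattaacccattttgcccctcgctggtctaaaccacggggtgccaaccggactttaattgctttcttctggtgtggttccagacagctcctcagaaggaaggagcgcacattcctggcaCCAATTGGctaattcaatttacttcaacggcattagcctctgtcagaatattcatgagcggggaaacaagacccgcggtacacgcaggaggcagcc
Pcdh10: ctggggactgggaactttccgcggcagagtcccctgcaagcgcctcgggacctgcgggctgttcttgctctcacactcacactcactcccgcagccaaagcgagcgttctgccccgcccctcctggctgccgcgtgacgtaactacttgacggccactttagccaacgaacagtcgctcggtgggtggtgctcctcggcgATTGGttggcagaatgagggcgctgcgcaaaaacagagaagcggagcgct
Pcdh19: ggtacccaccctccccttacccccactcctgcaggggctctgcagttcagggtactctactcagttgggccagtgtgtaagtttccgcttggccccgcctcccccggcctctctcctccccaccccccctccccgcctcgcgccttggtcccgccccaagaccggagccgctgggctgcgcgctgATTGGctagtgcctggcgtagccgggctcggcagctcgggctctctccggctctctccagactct

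The Cdh20 window held 10 CpG dinucleotides and 47.6% G and C, with matches on both strands that share bases in a palindrome. Pcdh10 held 22 CpGs and 63.2% G and C, and Pcdh19 held 16 CpGs and 69.2% G and C, beside a median of 6 CpGs and 52.4% G and C over 32851 promoters. A CCAAT match was found in 15 of the 25 promoters of members outside chromosome 18 and in 33.9% of all promoters. An ACAAAG match was found in 5 of the 25 and in 16.5% of all promoters. Of the members described with their range that have a promoter among the 25, Pcdh18 alone had an ACAAAG match. These matches describe letters only.

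Pcdh20 and Cdh1 were shared by the S100β-GFP+ gates and nearly absent from NG2-dsRed+ cells. Pcdh20 (chr14:88464743-88471396, minus strand) ranged from 10.2 through 17.9 to 64.5 CPM in PSCs and from 24.4 through 28.0 to 56.3 CPM in S100β-GFP+ cells, and stayed between 0 and 0.70 CPM in NG2-dsRed+ cells, where 8 of 10 libraries held 12 counts in all. The gap to NG2-dsRed+ cells was complete in both cases, with log2 fold changes of 6.82 ± 0.44 for PSCs and 7.40 ± 0.45 for S100β-GFP+ cells (edgeR adjusted p = 3.01e-13 and 9.84e-13). PSCs and S100β-GFP+ cells overlapped and did not pass the test (22.4 ± 17.0 CPM, n = 9, against 33.4 ± 12.0 CPM, n = 8, SD; log2 fold change −0.58 ± 0.32; edgeR adjusted p = 0.136). The highest PSC value came from library 6, and without it PSCs were lower by a log2 fold change of −0.96 (edgeR adjusted p = 0.00399). For Pcdh20 and Pcdh9 every NG2-dsRed+ library lay below every other library (0.724% of all genes). These and Cdh1 were the 3 members lower in NG2-dsRed+ cells than in both other groups (5.75% of all genes were).

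Cdh1 encodes E-cadherin, known from epithelia and from the junctions of Schwann cells with themselves (chr8:106603351-106670246, plus strand). It had 0, 4.80 and 10.8 CPM (lowest, median and highest) in PSCs, 3.31, 4.85 and 12.0 CPM in S100β-GFP+ cells and 0, 0.44 and 2.66 CPM in NG2-dsRed+ cells. PSC and S100β-GFP+ libraries overlapped along nearly their whole ranges (log2 fold change −0.27 ± 0.59; edgeR adjusted p = 0.731), and every S100β-GFP+ library lay above every NG2-dsRed+ library. Its log2 fold changes over NG2-dsRed+ cells were 2.99 ± 0.62 in PSCs and 3.27 ± 0.64 in S100β-GFP+ cells (edgeR adjusted p = 0.000239 and 0.00016). The 4 epithelial markers summed to 0–5.29 CPM in PSCs, 2.37–11.7 CPM in S100β-GFP+ cells and 7.80–19.9 CPM in NG2-dsRed+ cells, and their part in the levels of Cdh1 was not tested.

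N-cadherin (Cdh2), cadherin-6 (Cdh6) and cadherin-11 (Cdh11) are cadherins of mesenchymal, muscle and glial cells. Cdh2 was 3.62–8.66 CPM in S100β-GFP+ cells, below every PSC library (9.29–24.4 CPM) and every NG2-dsRed+ library (13.4–24.9 CPM), a pattern of 0.750% of all genes. PSCs exceeded S100β-GFP+ cells by a log2 fold change of 1.44 ± 0.19 (edgeR adjusted p = 3.74e-07) and did not pass the test against NG2-dsRed+ cells (log2 fold change −0.12 ± 0.17; edgeR adjusted p = 0.619). Cdh6 was likewise lowest in S100β-GFP+ cells, with 9.81 ± 2.41, 3.19 ± 1.82 and 7.77 ± 2.39 CPM (SD, n = 9, 8 and 10), and was higher in PSCs relative to S100β-GFP+ cells by a log2 fold change of 1.62 ± 0.34 (edgeR adjusted p = 0.00025). Cdh2, Cdh6, Pcdh17, Pcdhb16, Pcdhb17 and Pcdhgc4 were the 6 members lower in S100β-GFP+ cells than in both other groups (5.91% of all genes were).

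Cdh11 was measured at 14.0–71.0 CPM in PSCs, 22.0–58.4 CPM in S100β-GFP+ cells and 13.5–83.1 CPM in NG2-dsRed+ cells, with means of 41.8 ± 17.4, 38.0 ± 10.6 and 44.5 ± 23.0 CPM (SD, n = 9, 8 and 10). The groups overlapped throughout and no comparison passed the test (edgeR adjusted p = 0.73, 0.831 and 0.603), with a log2 fold change of 0.14 ± 0.30 for PSCs over S100β-GFP+ cells, while the mean summed fibroblast markers of the same groups were 1407, 28898 and 8803 CPM.

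**Figure D2:**
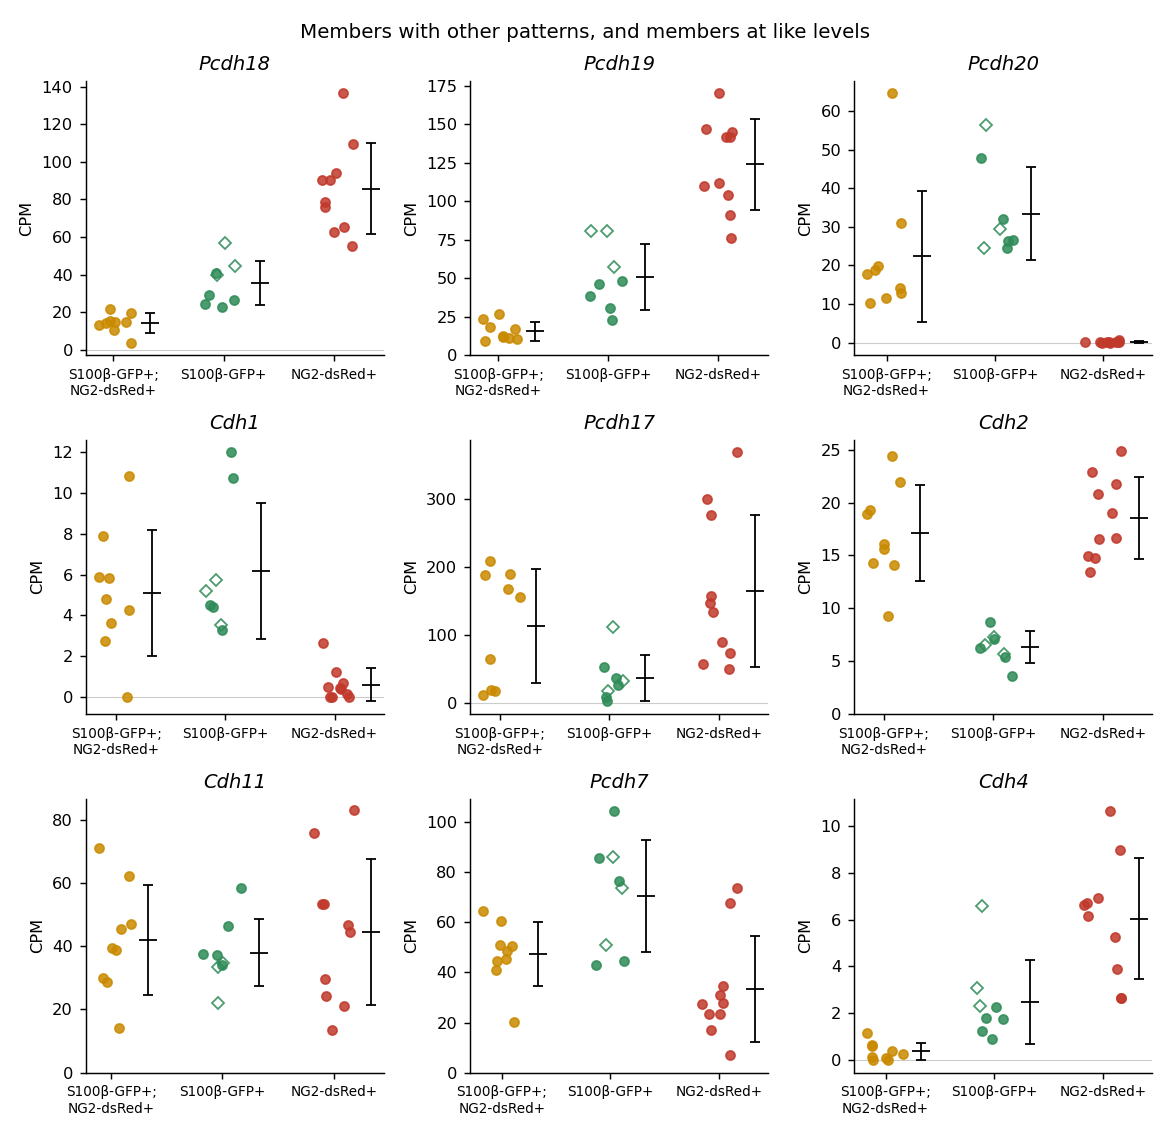
Normalised expression (CPM, vertical axis, 1 panel per gene) of 9 members with other orders among the groups, for each PSC, S100β-GFP+ and NG2-dsRed+ library. Dots are libraries, open diamonds are S100β-GFP+ libraries 14, 17 and 22, and black bars give the mean with the SD. Pcdh18 and Pcdh19 step up from PSCs to NG2-dsRed+ cells, Pcdh20 stays at or below 0.70 CPM in NG2-dsRed+ cells, and Cdh11 covers overlapping ranges in the 3 groups.

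The endothelial members peaked with the endothelial markers in NG2-dsRed+ cells and, within the S100β-GFP+ group, in libraries 14, 17 and 22. Cdh5 encodes VE-cadherin, the junctional cadherin of endothelium (chr8:104101625-104144511, plus strand), and ranged from 39.9 through 129 to 254 CPM in PSCs, from 5.99 through 41.1 to 796 CPM in S100β-GFP+ cells and from 650 through 950 to 1143 CPM in NG2-dsRed+ cells. S100β-GFP+ libraries 14, 17 and 22 held 211, 796 and 436 CPM, while the other 5 held 5.99–44.4 CPM. PSCs were 7.11-fold below NG2-dsRed+ cells (130 ± 60.0 CPM, n = 9, against 921 ± 152 CPM, n = 10, SD; log2 fold change −2.83 ± 0.62; edgeR adjusted p = 0.000395). Against all S100β-GFP+ cells (195 ± 285 CPM, SD, n = 8) the PSCs did not pass the test (log2 fold change −0.59 ± 0.60; edgeR adjusted p = 0.44). Without libraries 14, 17 and 22 the direction turned, and PSCs were 5.59-fold higher than the 5 remaining libraries (24.0 ± 16.5 CPM, SD, n = 5; log2 fold change 2.48 ± 0.40; edgeR adjusted p = 1.06e-05).

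The same turn was seen for Pcdh12, which encodes the VE-cadherin-related protocadherin of endothelium on chromosome 18. It had 0, 4.67 and 9.58 CPM (lowest, median and highest) in PSCs and 15.0, 35.5 and 54.5 CPM in NG2-dsRed+ cells, which did not overlap (log2 fold change −2.88 ± 0.68; edgeR adjusted p = 0.000937). S100β-GFP+ libraries 14, 17 and 22 held 7.76, 39.0 and 16.8 CPM and the other 5 held 0–1.31 CPM. The log2 fold change of PSCs over S100β-GFP+ cells was −0.80 ± 0.69 with these 3 libraries (edgeR adjusted p = 0.359) and 2.74 ± 0.61 without them (edgeR adjusted p = 0.000663).

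Pcdh1, a δ-1 protocadherin known from airway epithelium, and Cdh13, a GPI-anchored cadherin of vascular cells (chr8:118283733-119324921, plus strand), also peaked in NG2-dsRed+ cells. Pcdh1 had 14.1, 30.5 and 65.9 CPM in PSCs, 2.44, 8.10 and 61.5 CPM in S100β-GFP+ cells and 38.3, 106 and 133 CPM in NG2-dsRed+ cells. All groups overlapped, and only 1 PSC library lay above every S100β-GFP+ library. PSCs were below NG2-dsRed+ cells by a log2 fold change of −1.64 ± 0.46 (edgeR adjusted p = 0.00431), and over S100β-GFP+ cells the log2 fold change rose from 0.78 (edgeR adjusted p = 0.193) to 2.65 (edgeR adjusted p = 2.93e-06) without libraries 14, 17 and 22, which held 16.8, 61.5 and 43.8 CPM against 2.44–11.8 CPM in the other 5. Leaving out library 17 alone gave 1.35 (edgeR adjusted p = 0.0171). Cdh13 had 8.41, 28.8 and 59.1 CPM in PSCs, 10.6, 28.5 and 146 CPM in S100β-GFP+ cells and 119, 185 and 268 CPM in NG2-dsRed+ cells. PSC libraries were all below NG2-dsRed+ libraries (log2 fold change −2.62 ± 0.40; edgeR adjusted p = 3.44e-06), and PSCs did not pass the test against S100β-GFP+ cells with or without the 3 libraries, although the log2 fold change turned from −0.79 to 0.65 without them (edgeR adjusted p = 0.102 and 0.0906).

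In all, 7 members were higher in NG2-dsRed+ cells than in both other groups (Cdh4, Cdh5, Cdh13, Pcdh1, Pcdh12, Pcdh18 and Pcdh19; 8.44% of all genes were) and none was higher in S100β-GFP+ cells than in both others (11.8% of all genes were). No member had every NG2-dsRed+ library, or every S100β-GFP+ library, above all other libraries (2.31% and 4.92% of all genes). The endothelial markers moved with Cdh5, Pcdh12, Pcdh1 and Cdh13, and all 8 of them were lower in PSCs than in NG2-dsRed+ cells. Pecam1 alone averaged 50.5 CPM in PSCs, 118 CPM in S100β-GFP+ cells and 448 CPM in NG2-dsRed+ cells. The summed markers were 140–628 CPM (median 212 CPM) in PSCs. In the 5 S100β-GFP+ libraries other than 14, 17 and 22 they were 130–172 CPM (median 168 CPM). Pecam1 led the sum in PSCs, and Tek led it over all 8 S100β-GFP+ libraries (mean 134 CPM). The leading gene of the 5 libraries alone is not given here. Whether similar sums stand for similar amounts of endothelial RNA was not tested. Cdh5, Pcdh12 and Pcdh1 were 5.59-, 6.67- and 6.26-fold higher in PSCs than in those 5 libraries. The part of endothelial RNA in these results was not tested. Cdh23, a cadherin of sensory hair bundles, behaved likewise in libraries 14, 17 and 22 (10.9, 18.9 and 21.4 CPM against 1.52–5.33 CPM in the other 5), and its log2 fold change of PSCs over S100β-GFP+ cells went from −1.76 (edgeR adjusted p = 0.009) to −0.33 (edgeR adjusted p = 0.653) without them. Cdh15, the M-cadherin of muscle precursors, differed in no comparison of all libraries (4.31 ± 1.62, 2.20 ± 2.75 and 4.44 ± 2.82 CPM, SD, n = 9, 8 and 10), and without the 3 libraries PSCs exceeded S100β-GFP+ cells by a log2 fold change of 2.36 (edgeR adjusted p = 0.000373). The 6 satellite cell and myoblast markers summed to 26.3–67.1 CPM in PSCs. In S100β-GFP+ libraries 14, 17 and 22 they summed to 44.5–90.8 CPM, and in the other 5 to 14.6–34.7 CPM. The part of muscle precursor RNA in the levels of Cdh15 was not tested.

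Pcdh17 and Pcdh7 varied widely within groups. Pcdh17, a δ-2 protocadherin of synapses and axons (chr14:84443563-84539002, plus strand), ranged from 11.0 through 156 to 209 CPM in PSCs, from 3.33 through 29.8 to 111 CPM in S100β-GFP+ cells and from 49.3 through 141 to 369 CPM in NG2-dsRed+ cells. PSCs fell into a high set of 5 libraries at 156–209 CPM and a low set of 4 at 11.0–64.3 CPM. The high set was the one with under 25% of counts on Lars2, Gm23935 and Gm15564 (3.64–17.8%) and the low set the one with 27.7–36.6%. In NG2-dsRed+ cells the 3 libraries under 25% held 276–369 CPM and the 7 over it 49.3–158 CPM, whereas S100β-GFP+ libraries overlapped (26.7–53.1 CPM in 3 and 3.33–111 CPM in 5).

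With all libraries Pcdh17 was higher in PSCs relative to S100β-GFP+ cells by a log2 fold change of 1.64 ± 0.60 (edgeR adjusted p = 0.0252), and S100β-GFP+ cells were below NG2-dsRed+ cells by a log2 fold change of −2.19 ± 0.60 (edgeR adjusted p = 0.00538). With the share of those 3 genes as a term, the first was −0.06 (edgeR adjusted p = 0.932), and PSCs were below NG2-dsRed+ cells by a log2 fold change of −1.79 (edgeR adjusted p = 0.00214). The order of PSCs therefore depended on the term, and only the step from S100β-GFP+ to NG2-dsRed+ cells passed the test in both fits.

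Pcdh7, a δ-1 protocadherin (chr5:57717967-58133230, plus strand), had 20.3, 48.4 and 64.7 CPM (lowest, median and highest) in PSCs, 43.1, 75.1 and 105 CPM in S100β-GFP+ cells and 7.23, 27.5 and 73.6 CPM in NG2-dsRed+ cells. All groups overlapped. S100β-GFP+ cells exceeded NG2-dsRed+ cells by a log2 fold change of 1.08 ± 0.30 (edgeR adjusted p = 0.00487), and PSCs lay between them without passing the test against either (edgeR adjusted p = 0.121 and 0.157). PSCs were lower than S100β-GFP+ cells with the share of Lars2, Gm23935 and Gm15564 as a term (log2 fold change −0.82; edgeR adjusted p = 0.0301) and in a fit of these groups alone (−0.59; edgeR adjusted p = 0.035). Without NG2-dsRed+ library 28 or 35, PSCs were higher than NG2-dsRed+ cells by 0.79 or 0.75 on the log2 scale (edgeR adjusted p = 0.0205 and 0.0324). Pcdh11x, the last δ-1 member, stayed at means of 0.86–2.18 CPM and differed in no comparison of all libraries.

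**Figure D3:**
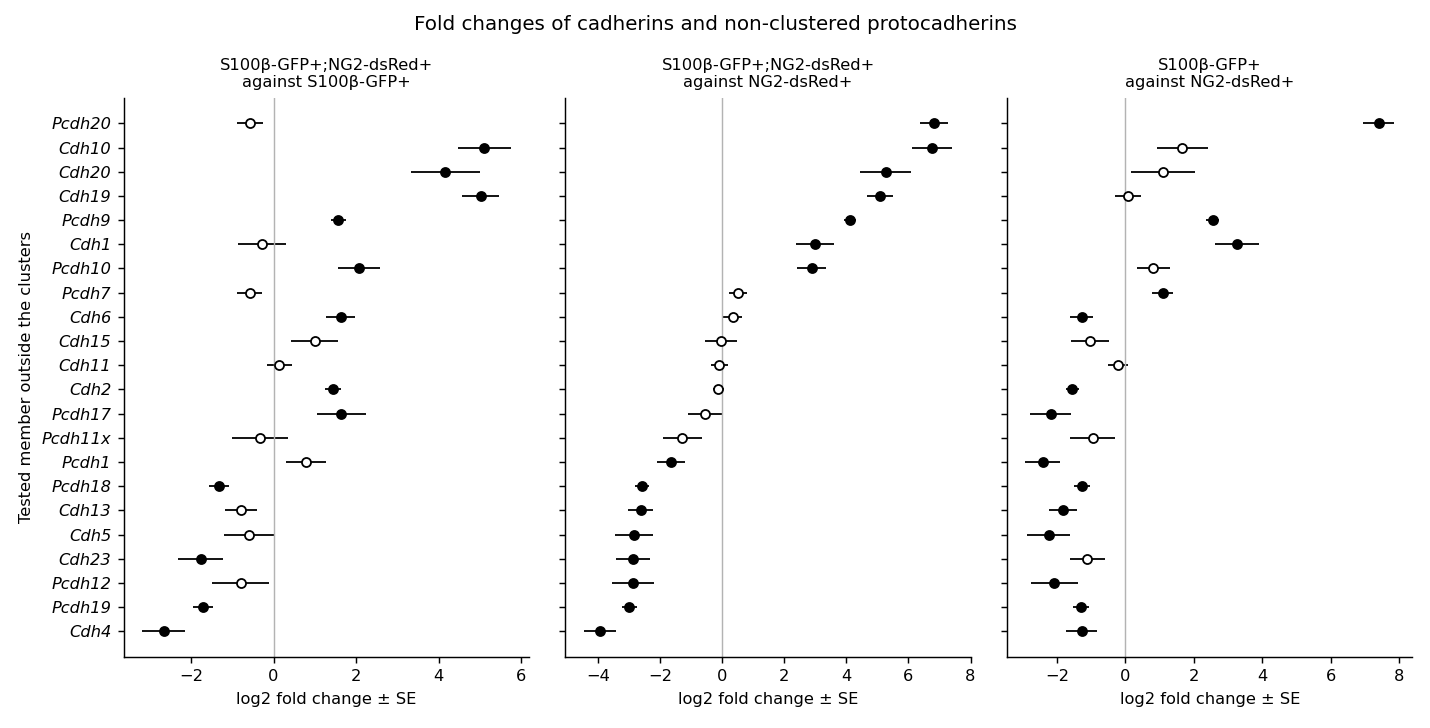
Log2 fold changes with their standard errors (horizontal axis) of the 22 tested members outside the clusters, 1 row per gene, for PSCs against S100β-GFP+ cells, PSCs against NG2-dsRed+ cells and S100β-GFP+ against NG2-dsRed+ cells. Filled symbols have an edgeR adjusted p under 0.05. Cdh10, Cdh19 and Cdh20 lie at 4.16 or more in both PSC comparisons and Cdh4, Pcdh18 and Pcdh19 at −1.32 or less.

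Among the clustered genes, differences in PSCs that passed the test were found mostly for β protocadherins. Their counts summed to 68.6, 83.1 and 105 CPM (lowest, median and highest) in PSCs, 20.2, 35.2 and 60.2 CPM in S100β-GFP+ cells and 34.7, 56.0 and 77.0 CPM in NG2-dsRed+ cells, so PSCs lay above all S100β-GFP+ libraries and overlapped with NG2-dsRed+ libraries. Of the 19 β members tested, 10 were higher in PSCs relative to S100β-GFP+ cells and none was lower (22.9% and 24.1% of all genes), with a median log2 fold change of 1.10 (0.04 over all genes). The remaining 9 did not pass the test. Against NG2-dsRed+ cells 7 were higher and 1, Pcdhb13, was lower (log2 fold change −1.84 ± 0.58; edgeR adjusted p = 0.0112), with a median of 0.73 (0.02 over all genes). These 8 were 42.1% of the 19, beside 44.0% of all genes (20.9% higher and 23.1% lower in PSCs). The γ sums were 36.8–111 CPM in PSCs, 28.4–81.3 CPM in S100β-GFP+ cells and 41.2–82.2 CPM in NG2-dsRed+ cells and overlapped in all groups. Of 18 γ members tested, 3 were higher in PSCs relative to S100β-GFP+ cells (16.7%, against 22.9% of all genes), among them Pcdhgb4 (log2 fold change 1.43 ± 0.33; edgeR adjusted p = 0.000621), and 1, Pcdhga5, was higher than in both other groups, as were 13.9% of all genes (log2 fold changes 1.07 ± 0.34 and 1.30 ± 0.32; edgeR adjusted p = 0.0117 and 0.00151).

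None of the 14 α members had enough counts to enter the fit. Their sum was 1.04 ± 0.87 CPM in PSCs, 2.82 ± 2.20 CPM in S100β-GFP+ cells and 0.69 ± 0.52 CPM in NG2-dsRed+ cells (SD, n = 9, 8 and 10), and Pcdhac2 gave 72 of the 78 α counts in PSCs. The mean α sum of S100β-GFP+ cells was 1.60 CPM without libraries 14, 17 and 22. In a fit with no filter on low counts, 8 of the 14 were lower in PSCs relative to S100β-GFP+ cells. None differed between PSCs and NG2-dsRed+ cells, and 3 were higher in S100β-GFP+ cells relative to NG2-dsRed+ cells. The share of all genes called in that fit is not given here. Between PSCs and S100β-GFP+ cells, DESeq2 called 1, Pcdha3, of the 3 to which it gave an adjusted p. Reads cannot always be assigned within the α and γ clusters, whose members share 38.9–91.4% (α) and 31.5–66.8% (γ) of their exon bases with other genes on the same strand. The β members share none, apart from Pcdhb21 and Pcdhb22, which overlap each other over up to 9.67% of their exon bases.

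The β member with the most counts was not among those higher in PSCs than in both other groups. Pcdhb17 took the largest share of β counts in 7 of 9 PSC, 4 of 8 S100β-GFP+ and 8 of 10 NG2-dsRed+ libraries, at 11.3 ± 4.90, 4.46 ± 2.37 and 10.3 ± 2.36 CPM (SD, n = 9, 8 and 10), and did not pass the test between PSCs and NG2-dsRed+ cells (edgeR adjusted p = 0.791). Pcdhb10 had 1.89, 4.15 and 23.5 CPM (lowest, median and highest) in PSCs, 0, 0.48 and 1.15 CPM in S100β-GFP+ cells and 0, 0.56 and 1.62 CPM in NG2-dsRed+ cells, with no overlap of PSCs and the rest. Its log2 fold changes were 3.85 ± 0.68 and 3.20 ± 0.59 (edgeR adjusted p = 2.71e-05 and 5.19e-05), and 3.41 and 2.79 without PSC library 18 (edgeR adjusted p = 4.2e-05 and 0.000103). Pcdhb7, Pcdhb8, Pcdhb11, Pcdhb19 and Pcdhb22 were also higher in PSCs than in both other groups, Pcdhb7 by log2 fold changes of 2.05 ± 0.49 and 1.85 ± 0.45 (edgeR adjusted p = 0.00108 and 0.0012). Without S100β-GFP+ libraries 14, 17 and 22 the first of these was 2.88 (edgeR adjusted p = 0.000257), and Pcdhb11 no longer passed the test against S100β-GFP+ cells (log2 fold change 1.55 with and 1.79 without them; edgeR adjusted p = 0.0338 and 0.0589). Pcdhb22, for example, averaged 8.63 ± 2.89, 4.00 ± 1.35 and 4.83 ± 1.91 CPM (SD, n = 9, 8 and 10).

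PSC library 18 drew its β counts from few genes. Pcdhb8 had 150 and Pcdhb10 had 134 of its 601 β counts, 25.0% (95% exact binomial interval 21.6–28.6%) and 22.3% (19.0–25.8%), and Pcdhb17 had 1 count. In the other 8 PSC libraries Pcdhb8 took 0.92–4.66%, Pcdhb10 took 2.76–10.8% and Pcdhb17 took 10.8–22.9% of β counts. Counts were found on 12 β and 10 γ members in library 18 and on at least 17 and 19 in each other library. Pcdhb8 was higher in PSCs by log2 fold changes of 2.68 ± 0.75 and 2.76 ± 0.69 (edgeR adjusted p = 0.00424 and 0.00154), and by 1.41 and 1.50 without this library (edgeR adjusted p = 0.0367 and 0.0172), below the difference of 2 that placed it among the 6 members named above. The part of the low number of genes with counts in library 18 was not tested.

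**Figure D4:**
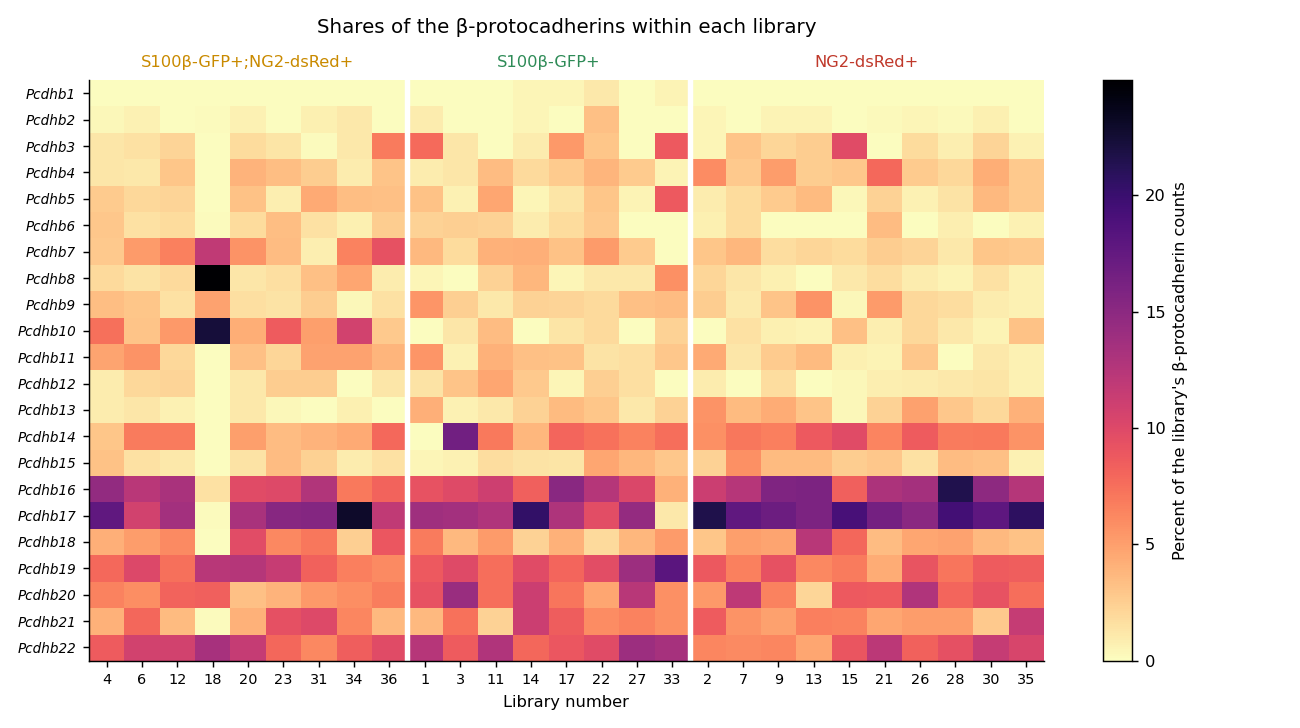
Share of each library's β protocadherin counts (percent, colour scale) taken by each of the 22 β members (vertical axis) in the 27 libraries (horizontal axis, grouped by cell population). Pcdhb17 takes the largest share in 19 of the 27 libraries, and PSC 18 departs from it with 25.0% on Pcdhb8 and 22.3% on Pcdhb10.

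The genes that act with cadherins were read from lists. Of 12 catenins and cytoplasmic partners tested, 6 were higher and 3 lower in PSCs relative to S100β-GFP+ cells, while 3 were higher and 5 lower relative to NG2-dsRed+ cells, with median log2 fold changes of 0.49 and −0.47. Of all genes, 22.9% were higher and 24.1% lower in the first comparison and 20.9% and 23.1% in the second, with medians of 0.04 and 0.02. Ajap1, which encodes a transmembrane partner of adherens junctions, averaged 458 ± 60.6 CPM in PSCs, 1.79 ± 1.65 CPM in S100β-GFP+ cells and 8.70 ± 3.64 CPM in NG2-dsRed+ cells (SD, n = 9, 8 and 10; log2 fold changes 7.99 ± 0.41 and 5.72 ± 0.33; edgeR adjusted p = 5.68e-15 and 2.19e-14). β-catenin itself (Ctnnb1) did not pass the test in PSCs against either group (edgeR adjusted p = 0.536 and 0.0852). δ-catenin (Ctnnd2), a neural catenin, was higher in PSCs than in NG2-dsRed+ cells by a log2 fold change of 5.53 ± 0.59 (edgeR adjusted p = 6.93e-09) and not different by the test from S100β-GFP+ cells (edgeR adjusted p = 0.52). Plakoglobin (Jup) and afadin (Afdn) were lower in PSCs than in both (log2 fold changes −1.54 and −2.30 for Jup and −1.21 and −2.64 for Afdn; edgeR adjusted p from 8.15e-08 to 0.00253).

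Among 11 tested genes of the wider cadherin superfamily, 2 were higher in PSCs relative to S100β-GFP+ cells and 4 were lower, and 2 were higher and 8 lower than in NG2-dsRed+ cells, so that the lower ones exceeded the share of all genes in both comparisons (24.1% and 23.1%) and the higher ones did not (22.9% and 20.9%). The Flamingo cadherins Celsr1 and Celsr2, known from planar polarity and axon guidance, were the higher ones (Celsr2 at 32.6 ± 17.4, 4.89 ± 2.51 and 2.17 ± 1.05 CPM, SD, n = 9, 8 and 10; log2 fold changes 2.73 ± 0.35 and 3.89 ± 0.34; edgeR adjusted p = 1.31e-07 and 1.15e-10). The giant cadherin Fat4 was lower (6.83 ± 4.29, 43.2 ± 17.2 and 47.1 ± 13.6 CPM, SD, n = 9, 8 and 10; log2 fold changes −2.66 ± 0.35 and −2.79 ± 0.34; edgeR adjusted p = 2.17e-07 and 7.72e-08), as were Fat3 and the dachsous cadherin Dchs2. Of 12 regulators of the clustered genes, 5 were higher in PSCs relative to S100β-GFP+ cells (22.9% of all genes) and none was lower (24.1%). Relative to NG2-dsRed+ cells 2 were higher (20.9%) and 1, Wapl, was lower (23.1%). The median log2 fold changes were 0.29 and 0.025, beside 0.04 and 0.02 over all genes. Ctcf and Smc3 exceeded both groups (Ctcf log2 fold changes 1.12 ± 0.20 and 0.56 ± 0.19; edgeR adjusted p = 3.5e-05 and 0.0146).

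Of 6 tested factors known to repress E-cadherin, Zeb2 was higher in PSCs than in both groups (863 ± 231, 307 ± 130 and 149 ± 33.2 CPM, SD, n = 9, 8 and 10; log2 fold changes 1.49 ± 0.22 and 2.53 ± 0.22; edgeR adjusted p = 2.37e-06 and 7.72e-11), and Snai1, Snai2, Twist1 and Twist2 were lower than in both (13.9% and 14.4% of all genes were higher and lower than both). Zeb1 was higher in PSCs relative to S100β-GFP+ cells (log2 fold change 1.11 ± 0.16; edgeR adjusted p = 9.61e-07) and did not pass the test against NG2-dsRed+ cells (log2 fold change 0.10 ± 0.15; edgeR adjusted p = 0.62). Twist1, for example, averaged 0.90 ± 0.80, 24.8 ± 8.20 and 12.0 ± 4.48 CPM (SD, n = 9, 8 and 10; log2 fold changes −4.76 ± 0.41 and −3.71 ± 0.39; edgeR adjusted p = 6.24e-11 and 4.33e-09). Of 5 proteases that process cadherins, Adam17 was higher in PSCs than in both groups (log2 fold changes 1.33 ± 0.17 and 1.93 ± 0.17; edgeR adjusted p = 2.53e-07 and 8.52e-11), and Adam10 was lower than in both.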

How the data were processed

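RNA was sequenced (SMART-Seq v4 after PicoPure extraction) and, per the labels and the study methods, trimmed, aligned to GRCm38 with HISAT2 and counted per gene with HTSeq. The deposited values are raw counts per Ensembl gene, made by the authors. For versions, annotation release, counting mode and strand setting: not given in the sources used here. The table holds 27 of the 36 labelled samples, and the other 9 were not analysed here. The methods state that failed samples were set aside and count fewer S100β-GFP+ replicates than the table holds, and all columns were used. Each library is 1 mouse per the methods, and whether a mouse gave several populations is not stated.

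Gene types, positions and exon lengths came from GENCODE vM21 (GRCm38). Counts were filtered with filterByExpr (minimum count 10; 15330 genes kept), scaled by TMM and fitted over all 3 groups with edgeR 4.0.16 (glmQLFit and glmQLFTest; R 4.3.3), with p-values adjusted by the Benjamini-Hochberg method over all genes and a threshold of 0.05. Standard errors were taken as log2 fold change over the square root of F. CPM are TMM-scaled. The fit was tested on simulated data with known changes. Intervals of shares cover counting error only. Alternatives were DESeq2 1.42.0, its size factors in edgeR, no filter, 2 groups per fit, library sizes without Lars2, Gm23935 and Gm15564, their share as a term, leaving out S100β-GFP+ libraries 14, 17 and 22, and leaving out each library in turn. Cluster sums were recomputed under alternatives chosen after seeing the data. The members, lists and libraries set apart were chosen with earlier results of these data known. Members with a mean of at least 20 CPM in some group, or called against both other groups with a log2 fold change of at least 2, are described with their range, and the rest by class or as members of a counted pattern. No 2 libraries agreed within sampling noise. Promoters came from RefSeq, with the 60 members on chromosome 18 left out, among them Pcdh1, Pcdh12, Pcdhb8 and Pcdhb10.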

Additional observations from a re-analysis of the deposited data

Results flagged for a closer look

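A library far from the rest of its group (by Dixon's gap over range) was found in 15 of 81 sets of libraries (24 members and 3 cluster sums in 3 groups). The rule flags about 1 in 20 where values follow a normal distribution. CPM near 0 need not follow it, so the 15 are not compared with chance. Each was the highest library of its group, and its nearest neighbour is given after it. In PSC library 18, Pcdhb10 was 23.5 CPM (next 8.45 CPM) and Pcdhb8 was 26.3 CPM (next 3.37 CPM). PSC library 6 had 564 CPM of Cdh19 (next 364 CPM) and 64.5 CPM of Pcdh20 (next 31.0 CPM). PSC library 36 had 3.68 CPM of Pcdh11x (next 1.30 CPM), and without it Pcdh11x was lower in PSCs than in NG2-dsRed+ cells (log2 fold change −1.93; edgeR adjusted p = 0.0134).

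Among S100β-GFP+ libraries, number 17 had 39.0 CPM of Pcdh12 (next 16.8 CPM) and 111 CPM of Pcdh17 (next 53.1 CPM). Number 22 had 3.62 CPM of Cdh10 (next 1.42 CPM) and 6.58 CPM of Cdh4 (next 3.07 CPM). It held counts on 38568 genes and on 89 members, in both cases more than any other library.

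Among NG2-dsRed+ libraries, number 28 had 16.7 CPM of Cdh19 (next 10.0 CPM), 1.06 CPM of Cdh10 (next 0.472 CPM) and 4.72 CPM of Pcdh9 (next 3.23 CPM). These are 3 of the members that were higher in PSCs. Library 28 also had the lowest endothelial sum of its group (949 CPM) and the highest sums of fibroblast and tendon markers (19104 and 361 CPM). Its Schwann cell lineage sum was 101 CPM, beside a group median of 103 CPM. Number 9 had 2.66 CPM of Cdh1 (next 1.26 CPM), number 35 had 1.13 CPM of Cdh20 (next 0.426 CPM) and number 15 had 0.701 CPM of Pcdh20 (next 0.283 CPM). No explanation of these values was tested.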

How the results depend on the processing

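The labels do not say which libraries came from the same mouse, so all fits treat the libraries as unpaired. Any pairing of populations from the same mouse was not modelled. Of 67 member calls, 50 were tested and made under all 34 alternatives, 6 were made wherever the member was tested but not tested in some of them (Cdh20 and Pcdhb8 in both PSC comparisons, Cdh4 against S100β-GFP+ cells and Pcdhb13 against NG2-dsRed+ cells), and 11 were lost in at least 1. Low counts left 42–51 members in the fits of 2 groups. Where a member was tested, 5766 of 5900 refitted log2 fold changes stayed on their side of the threshold and, where called, kept their direction. The count of members that differed between PSCs and S100β-GFP+ cells was 39 of 92 (22 higher in PSCs and 17 higher in S100β-GFP+ cells; 24 shared with the 25 calls) with no filter on low counts, where 92 members were tested. Over the other settings it was 24–31, and it was 21–28 for PSCs and NG2-dsRed+ cells and 17–25 for S100β-GFP+ and NG2-dsRed+ cells, with 31, 26 and 22 by DESeq2. Leaving out 1 library at a time gave 22–27, 20–26 and 13–22. The log2 fold change of PSCs over S100β-GFP+ cells turned without libraries 14, 17 and 22 for Cdh5 (2.48) and Pcdh12 (2.74), which passed the test only without them, and for 5 members that passed it in neither fit, among them Cdh13 (0.65) and Pcdh11x (0.09). It also turned for Pcdh17 (−0.063) with the share of Lars2, Gm23935 and Gm15564 as a term. The causes were not tested. Calls near the threshold were those of Pcdhb20 and Pcdhb11 (PSCs and S100β-GFP+ cells), Pcdhb4 and Cdh4 (S100β-GFP+ and NG2-dsRed+ cells) and Pcdhgc4. Of the 33 members under the filter, 13 were lower and 1 higher in PSCs relative to S100β-GFP+ cells with no filter, against 5 and 0 of the 20 given an adjusted p by DESeq2. The shares of all genes called with no filter and by DESeq2 are not given here. Both fits put Cdh7 lower in PSCs relative to S100β-GFP+ cells (log2 fold changes −3.47 and −3.99; adjusted p = 0.0144 and 0.0409) and Cdh8 higher than in NG2-dsRed+ cells (4.89 and 5.08; adjusted p = 7.48e-05 and 3.53e-06). S100β-GFP+ libraries 14, 17 and 22 held 0.53, 3.07 and 1.48 CPM of Cdh7, and the other 5 held 0–0.17 CPM. Neither fit was run without these 3 libraries.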

Other observations

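Melanocyte genes were present in PSC libraries. The 5 melanocyte markers summed to 31.3–136 CPM in PSCs, 1.94–21.6 CPM in S100β-GFP+ cells and 0.315–4.40 CPM in NG2-dsRed+ cells, led in PSCs by Dct (61.0 ± 46.3 CPM, SD, n = 9). Of the 3 that could be tested, Dct and Tyrp1 were higher in PSCs than in both other groups. Cdh1, Cdh19 and Cdh10 are expressed in cells of the neural crest lineage, to which melanocytes and Schwann cells both belong, and the part of melanocyte RNA in their levels was not tested.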
